A study of Homo sapiens with 4 samples.

Results

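Of 19722 protein-coding genes counted in HCT116 cells, 61 had 10 or fewer reads in each control library and 20 or more in each library made after 24 h with HJJ_3_5. HCT116 is a widely used cell line grown from a human colorectal carcinoma, and it is epithelial. HJJ_3_5 is a piperine derivative according to the title of the study, and the sources used here give no concentration for it. Each group held 2 samples of the line, numbered 1 and 2, and the control samples are named DMSO after the usual solvent, although the culture description speaks only of cells left without the compound. No label tells whether samples 1 and 2 of a group were separate cultures. The p-values below therefore reflect only how far the samples of a group lay apart, and that spread may be technical.

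The 61 genes were chosen by their read counts in the same 4 libraries that are described here. Their difference between the groups is therefore given as a description, without a test, and results of tests are drawn only from genes that the choice did not use. A total of 5686 protein-coding genes were near-silent in the sense of the rule, with 10 or fewer reads in both DMSO libraries, and the 61 are 1.07% of these. Of the 5686, 2955 had 0 reads in all 4 libraries. A further 107 near-silent genes reached 20 reads in only 1 HJJ_3_5 library, 28 of them in library 1 and 79 in library 2. The mirrored rule, with 20 or more reads in both DMSO libraries and 10 or fewer in both HJJ_3_5 libraries, was met by 10 genes.

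In a cell line, genes that belong to other tissues or to other stages of development are usually held near silence by closed chromatin, by DNA methylation or by the lack of the transcription factors that switch them on. The few reads such a gene yields can come from rare transcripts, from a small fraction of the cells, or from reads of an overlapping or closely similar gene. Among the 61 were signalling receptors and ligands, epidermal and intestinal keratins, matrix proteins, developmental transcription factors, channels of excitable cells and genes of the germ line. These role groups were drawn up after the members were known and serve only to order the description. In RNA from whole cultures, a few cells that express a gene strongly and many cells that express it weakly cannot be told apart, nor can fewer cells of a type and less RNA per cell.

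Sequencing depth sets what a count of 10 or 20 means. The DMSO libraries summed to 31120459 and 29769568 reads and the HJJ_3_5 libraries to 29211120 and 36455176, which made HJJ_3_5 library 2 the deepest. Levels are given as CPM, the counts scaled to a common library size by TMM (trimmed mean of M-values, which equalises the bulk of genes between libraries). On this scale 10 reads correspond to 0.339 and 0.362 CPM in the DMSO libraries, and 20 reads to 0.646 and 0.511 CPM in the HJJ_3_5 libraries. With counts scaled by TMM to the mean library size before the same thresholds were applied, 40 of the 61 genes met the rule and the mirrored rule was met by 13 genes. Libraries of 1 group also differed at this depth. From 10 or fewer reads in 1 DMSO library to 20 or more in the other there were 60 and 65 genes in the 2 directions, and the corresponding numbers between the HJJ_3_5 libraries were 142 upward from library 1 to library 2 and 18 the other way.

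The 61 genes together held 367 and 317 counts in the DMSO libraries and 1864 and 2756 in the HJJ_3_5 libraries, or 11.8 and 10.6 reads per 1e6 of the library total against 63.8 and 75.6. The ratio of HJJ_3_5 to DMSO, from the summed and scaled counts of each group, had a median of 4.12 over the 61 genes. It ran from 1.87 for GLTPD2 to 101 for ENSG00000283765. The ratio was 4 or more for 33 genes and under 2 for 2 genes, GLTPD2 and QPRT. All 61 genes passed the filter on low counts, which they did through their HJJ_3_5 libraries. At a Benjamini-Hochberg adjusted p below 0.05 in edgeR's quasi-likelihood test, 31 of them were called higher, against 9.17% of the 14180 genes tested. The rule used this contrast, so nothing is read from that count. Over all tested genes 1300 were called higher and 1173 lower, and with library totals in place of TMM, which raised the median log2 fold change by 0.19, the split was 2614 to 821.

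**Figure D1:**
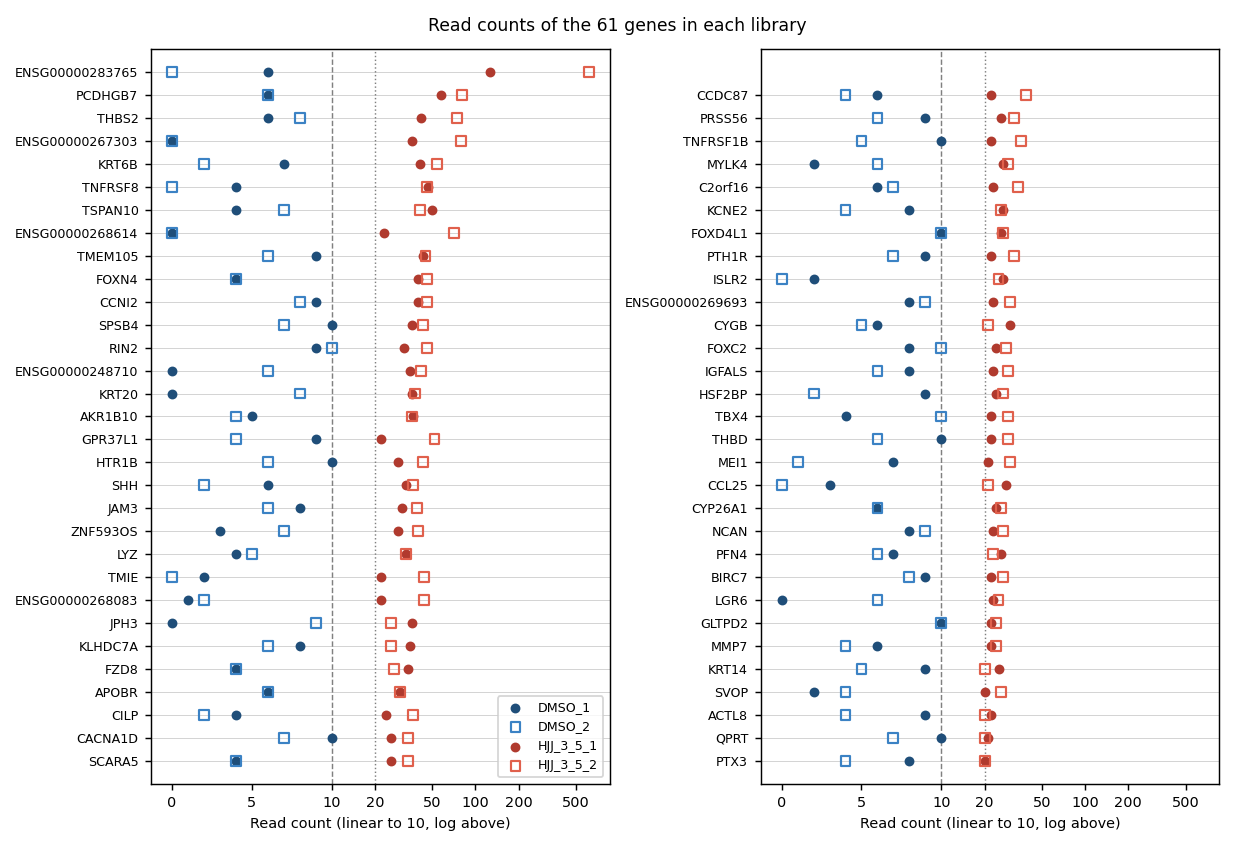
Read counts of each of the 61 genes in each library, on an axis that is linear up to 10 and logarithmic above, with genes ordered by mean CPM with HJJ_3_5. Filled circles are library 1 and open squares library 2 of each group (blue DMSO, red HJJ_3_5), and the dashed and dotted lines mark the 10 and 20 reads of the rule. Most genes sit between 20 and 50 reads with HJJ_3_5, and ENSG00000283765 stands apart with 127 and 616.

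Even with HJJ_3_5 the genes stayed at low levels. Per kilobase of the longest protein-coding transcript, the median level with HJJ_3_5 was 0.328 CPM over the 57 members with a known length, against 7.49 over 14018 tested genes. Only 7.16% of the tested genes were below the median member. The highest levels per kilobase were those of ENSG00000283765 at 3.24 CPM, ENSG00000268083 at 0.953, CCL25 at 0.756, PFN4 at 0.733, KCNE2 at 0.731 and TSPAN10 at 0.725. The level was lowest per kilobase for C2orf16, at 0.0491 CPM.

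The thresholds cut through a continuum. The largest DMSO count was 9 or 10 for 23 members, the smallest HJJ_3_5 count was 20 to 22 for 19, and 32 of the 61 met either description. Just inside the rule were PTX3, with 8 and 4 reads with DMSO and 20 and 20 with HJJ_3_5, and GLTPD2, with 10 and 10 against 22 and 24. Just outside it, 39 genes had a largest DMSO count of 11 to 13 and 26 had a smallest HJJ_3_5 count of 17 to 19. EMILIN1, which encodes an elastic-fibre glycoprotein, missed the rule with 12 and 6 reads against 80 and 77. RIMBP3B missed it with 13 and 11 against 62 and 64, and C10orf143 with 7 and 13 against 60 and 54. On the other side, FBXO43 had 6 and 5 reads with DMSO and 19 and 48 with HJJ_3_5, ODF3L2 had 6 and 5 against 17 and 41, and FIGNL2 had 8 and 2 against 18 and 36.

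To show the sequence context of members that appeared together, 4 promoters are given below. They belong to the members with the highest mean CPM with HJJ_3_5 among those that share no exon bases with any annotated gene and have an entry in the promoter table used, so KRT6B, which has none, is only named. Each is the 250 bases before RefSeq's transcription start (RefSeq, GRCh38.p14), written 5′ to 3′ on the strand of the gene, with capitals for any match to 7 short motifs on either strand. THBS2, a thrombospondin of the extracellular matrix, has its window at chr6:169253847-169254096 on the minus strand. TNFRSF8, which encodes the CD30 receptor, has it at chr1:12063053-12063302 on the plus strand. For TMEM105 it is chr17:81330675-81330924 on the minus strand, and for FOXN4, a forkhead transcription factor of retinal and spinal cord development, chr12:109309285-109309534 on the minus strand.
THBS2: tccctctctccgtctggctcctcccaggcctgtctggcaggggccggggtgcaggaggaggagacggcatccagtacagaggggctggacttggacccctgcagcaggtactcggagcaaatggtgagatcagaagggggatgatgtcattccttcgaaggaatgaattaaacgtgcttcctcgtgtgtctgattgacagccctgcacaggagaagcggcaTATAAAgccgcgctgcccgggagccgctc
TNFRSF8: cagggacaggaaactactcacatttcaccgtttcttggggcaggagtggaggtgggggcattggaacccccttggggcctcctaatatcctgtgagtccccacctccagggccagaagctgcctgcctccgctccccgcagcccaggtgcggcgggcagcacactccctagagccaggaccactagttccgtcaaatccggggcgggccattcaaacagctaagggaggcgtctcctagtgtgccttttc
TMEM105: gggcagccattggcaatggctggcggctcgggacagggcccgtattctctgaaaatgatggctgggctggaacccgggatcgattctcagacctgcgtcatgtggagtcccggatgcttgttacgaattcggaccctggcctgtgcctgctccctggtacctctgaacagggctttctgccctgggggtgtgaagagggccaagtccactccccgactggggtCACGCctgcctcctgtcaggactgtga
FOXN4: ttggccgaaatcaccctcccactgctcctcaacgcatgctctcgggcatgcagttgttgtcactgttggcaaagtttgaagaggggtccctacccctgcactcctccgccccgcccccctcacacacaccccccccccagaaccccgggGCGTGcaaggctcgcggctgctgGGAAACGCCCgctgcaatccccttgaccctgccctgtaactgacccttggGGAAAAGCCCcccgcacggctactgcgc

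The THBS2 window holds a TATAAA 29 bases before the start. The TNFRSF8 window holds none of the 7 motifs. In TMEM105 the capitals mark GCGTG read on the opposite strand, 27 bases before the start. In FOXN4 they mark a GCGTG 101 bases before the start and a pair of matches to an NF-kB consensus on the opposite strand, 78 and 28 bases before the start. The motifs searched were TATAAA (the TATA box core), TGANTCA (the AP-1 core), CACGTG (the E-box bound by MYC and related factors), TGACGTCA (the cyclic AMP response element), GCGTG (the core bound by the aryl hydrocarbon receptor), TGATGNAA (a C/EBP-ATF composite element) and the NF-kB consensus of 10 bases. None of the 7 is contained in another. Such a match is a string of letters and not a binding site.

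A promoter entry was found for 39 of the 61 members. TATAAA was present in 15.4% of these, against 18.3% of 4124 near-silent genes and 5.73% of 11216 tested genes, and 11.1% of all 27305 promoters in the table. For CACGTG the shares were 12.8% of members, 5.26% of near-silent genes, 8.84% of tested genes and 6.49% of all promoters, and the 5 members with it were ACTL8, BIRC7, CYP26A1, PTH1R and TBX4. GCGTG occurred in 38.5% of members, 25.4% of near-silent genes, 44.7% of tested genes and 31.9% of all promoters. TGANTCA was in 10.3% of members, against 7.81%, 4.01% and 6.60% in the same order. TGATGNAA was in 2.56% of members, against 4.56%, 1.36% and 3.19%, and the NF-kB consensus likewise in 2.56%, against 1.55%, 1.92% and 1.73%. No member held TGACGTCA, which 1.77% of all promoters hold. With 39 promoters a share of 2.56% is a single gene, PCDHGB7 for TGATGNAA and FOXN4 for the NF-kB consensus.

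The members' promoters resembled those of near-silent genes in CpG content more than those of tested genes. The median ratio of observed to expected CpG was 0.454 for members, 0.325 for near-silent genes and 0.810 for tested genes. It was above 0.6, a usual mark of a CpG island, in 28.2% of members, 28.5% of near-silent genes and 77.4% of tested genes. Their GC content had medians of 62.0% for members, 52.8% for near-silent genes and 64.8% for tested genes. Transcripts of members were also GC-rich. The median GC content of the longest protein-coding transcript was 56.4% over the 57 members with a value, against 48.6% for near-silent genes, 50.005% for tested genes and 47.6% for the genes of the mirrored rule. In these libraries the log2 fold change moved with GC content, with a median of 0.24 in the fifth of tested genes with the most GC (59.3% or more), a range that holds 20 members, against 0.00 over all tested genes. The median log2 fold change of the 61 members was 2.04, and 2.13 after removal of a GC and length trend, with a direction that the rule fixes. The part of this trend in which genes met the rule was not tested.

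**Figure D2:**
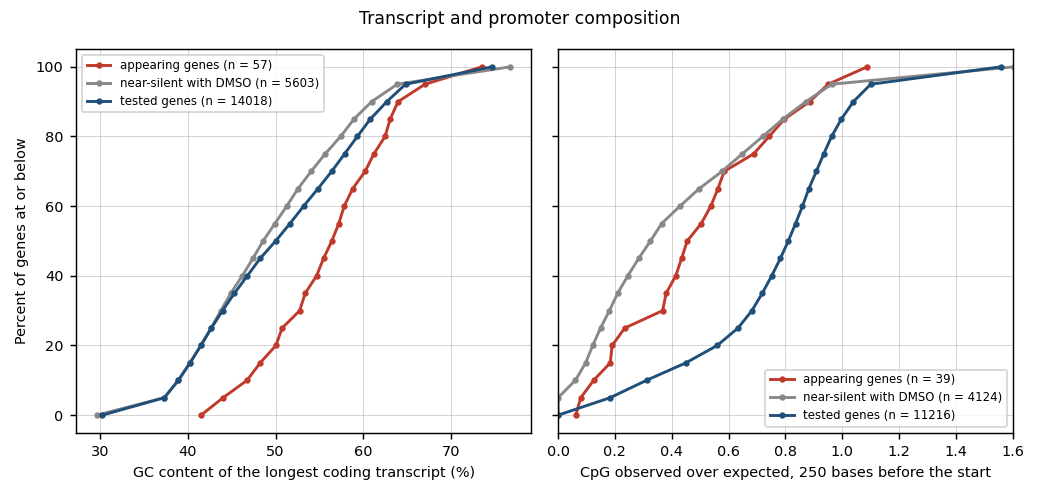
Cumulative distributions of transcript GC content in percent (left) and of the observed over expected CpG ratio in the 250 bases before the start (right) for the genes that appeared with HJJ_3_5 (red), near-silent genes (grey) and tested genes (blue). Each point is a step of 5 percentiles, and the right axis ends at 1.6. Up to the 95th percentile the red curve lies to the right of both others for transcript GC, with a median of 56.4%, and lies near the grey curve for promoter CpG, with medians of 0.454 and 0.325.

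Receptors and ligands formed the largest role group, with 14 members and a median ratio of 5.37. TNFRSF8, the CD30 receptor of activated lymphocytes, had 4 and 0 reads with DMSO and 47 and 46 with HJJ_3_5. The levels were 0.0679 ± 0.0960 CPM (SD, n = 2) and 1.35 ± 0.243 CPM (SD, n = 2), a ratio of 18.9 with a 95% interval of 7.15 to 70.9. Intervals here and below are exact and cover counting error only. TNFRSF1B, the type 2 receptor for tumour necrosis factor, lies next to TNFRSF8 on chromosome 1, 22.8 kb away on the same strand with no protein-coding gene between them. It had 10 and 5 reads against 22 and 36. The type 1 receptor gene TNFRSF1A, which is abundant in these cells, had 4236 and 3787 reads against 6536 and 7820 and was called higher (log2 fold change 0.55 ± 0.09 SE, edgeR adjusted p = 0.0336). That call was lost without DMSO 1, DMSO 2 or HJJ_3_5 1, where the adjusted p reached 0.194.

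SHH, the secreted Sonic hedgehog ligand, had 6 and 2 reads with DMSO and 33 and 37 with HJJ_3_5. The other hedgehog ligands were low as well, with 0 and 0 against 9 and 4 reads for IHH, and 24 and 24 against 14 and 15 for DHH. The genes of the hedgehog receptor PTCH1 and the effector GLI1, both usually induced when the pathway is active, had log2 fold changes of -0.62 ± 0.15 SE and 0.59 ± 0.14 SE (edgeR adjusted p = 0.0532 and 0.0557), so neither passed the threshold. These relatives and pathway genes were picked after the members were known. Of the Wnt-related receptors, FZD8, a Frizzled, had 4 and 4 reads against 34 and 27. LGR6, a receptor for R-spondins that marks stem cells of the skin, had 0 and 6 against 23 and 25. Its relative LGR5, a marker of intestinal stem cells, had 0 reads in 3 libraries and 6 in HJJ_3_5 library 2. LGR4 was abundant, with a log2 fold change of -0.16 ± 0.11 SE (edgeR adjusted p = 0.331).

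CCL25, a chemokine of the small intestine and thymus, had 3 and 0 reads with DMSO and 28 and 21 with HJJ_3_5, a ratio of 13.3 with a 95% interval of 4.29 to 66.7. The serotonin receptor gene HTR1B had 10 and 6 reads against 29 and 43. PTH1R, the receptor for parathyroid hormone, had 9 and 7 against 22 and 32. GPR37L1, an orphan receptor of glia, had 9 and 4 against 22 and 52, so its HJJ_3_5 libraries differed more than those of most members. JAM3, a junctional adhesion molecule, had 8 and 6 against 31 and 39, and the tetraspanin gene TSPAN10 had 4 and 7 against 50 and 41. GPR37L1, JAM3 and TSPAN10 share exon bases with a gene on the opposite strand, as does APOBR. THBD, which encodes thrombomodulin of the vessel wall, had 10 and 6 against 22 and 29. The group was completed by APOBR, an apolipoprotein B receptor, with 6 and 6 reads against 30 and 30, and SCARA5, a ferritin receptor, with 4 and 4 against 26 and 34.

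The 3 keratins had a median ratio of 7.53. KRT6B, a keratin of stressed and wounded epidermis, had 7 and 2 reads with DMSO and 41 and 54 with HJJ_3_5, or 0.155 ± 0.117 CPM and 1.35 ± 0.0385 CPM (SD, n = 2 each). KRT20, a keratin of differentiated intestinal cells, had 0 and 8 against 36 and 38, and KRT14 of basal epidermis had 9 and 5 against 25 and 20. The reads of keratin genes can be split between near-identical copies. KRT6A, the closest relative of KRT6B, had 0 and 2 reads against 28 and 17, missing the rule through HJJ_3_5 library 2, with a log2 fold change of 4.09 ± 1.002 SE (edgeR adjusted p = 0.0562). Like the members, KRT6A passed the filter on low counts only through its HJJ_3_5 libraries, so its change is a description. KRT6C had 0, 0, 1 and 0 reads. KRT16 had 36 and 20 against 115 and 90 (log2 fold change 1.62 ± 0.41 SE, edgeR adjusted p = 0.0589), while KRT17, another relative of KRT14, had 34 and 33 against 35 and 34. By symbol, 3 of the 40 near-silent keratin genes became members, beside 1.07% of all near-silent genes. On the list of cornified envelope and stress keratin genes, 23 of 24 were in the table and 17 were near-silent with DMSO. KRT6B and KRT14 were the 2 members on it. Of the 9 tested genes of this list, edgeR called only KRT6B higher, which the rule had chosen on this contrast, and 0 lower, with 4 higher and 0 lower at an unadjusted p below 0.05. DESeq2 and limma-voom each called 2 higher and 0 lower. The 4 include the members KRT6B and KRT14, and also KRT6A, which passed the filter only through its HJJ_3_5 libraries. The calls of the other methods can include these genes as well, so nothing is read from the counts on this list.

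The role group of matrix and secreted proteins held 8 members, with a median ratio of 4.86. The group is loose and also took in ISLR2, which is not a matrix protein. THBS2 had 6 and 8 reads with DMSO and 42 and 74 with HJJ_3_5, or 0.247 ± 0.0608 CPM and 1.62 ± 0.377 CPM (SD, n = 2 each). CILP, a cartilage matrix protein, had 4 and 2 against 24 and 37. LYZ, the lysozyme gene of myeloid and Paneth cells, had 4 and 5 against 33 and 33, almost the same count within each group. ISLR2, a leucine-rich repeat protein of neurons, had 2 and 0 reads against 27 and 25, a ratio of 21.2 with a 95% interval of 5.57 to 179. MMP7, the metalloproteinase matrilysin, had 6 and 4 against 22 and 24. NCAN, the brain proteoglycan neurocan, had 8 and 9 against 23 and 27. PRSS56, a serine protease of the eye, had 9 and 6 against 26 and 32. The values of PTX3, a pentraxin of innate immunity, are given above.

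All 4 transcription factors were of developmental families, and their median ratio of 2.66 was the lowest of the role groups. FOXN4 had 4 and 4 reads with DMSO and 40 and 46 with HJJ_3_5, a ratio of 8.75. FOXC2, of mesoderm and lymphatic vessels, had 8 and 10 against 24 and 28, and TBX4, of the hind limb and lung, had 4 and 10 against 22 and 29. FOXD4L1 had 10 and 10 against 26 and 27, and belongs to a family of near-identical copies. FOXD4 itself had 20 and 21 against 48 and 89 (log2 fold change 1.41 ± 0.33 SE, edgeR adjusted p = 0.0516). FOXD4L4, FOXD4L5 and FOXD4L6 had log2 fold changes of 1.40, 1.27 and 1.32, with edgeR adjusted p of 0.191, 0.116 and 0.110. These copies passed the filter on low counts only through their HJJ_3_5 libraries, which favours a positive change, so nothing is read from its direction. The counts of single FOXD4 copies are uncertain because reads may be shared between them. By symbol, 3 of 24 near-silent forkhead genes were members, and 0 of 10 near-silent HOX genes, beside 1.07% of all near-silent genes. With 10 HOX genes, 0 is close to what that share gives, and nothing is read from it.

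The 5 enzymes and small-molecule binding proteins had a median ratio of 3.78. AKR1B10, an aldo-keto reductase of retinal and lipid aldehydes, had 5 and 4 reads with DMSO and 37 and 36 with HJJ_3_5. Its relative AKR1B1 was abundant, with a log2 fold change of 0.04 ± 0.14 SE (edgeR adjusted p = 0.845), and AKR1B15 had 0 reads in all 4 libraries. CYP26A1, which degrades retinoic acid, had 6 and 6 against 24 and 26. CYP26B1, which has the same activity, had 1750 and 466 against 2395 and 523 reads, so its libraries differed by number within each group more than between the groups. CYGB, the globin cytoglobin, had 6 and 5 against 30 and 21, and the kinase gene MYLK4 had 2 and 6 against 27 and 29. GLTPD2, a glycolipid transfer protein, is described at the thresholds above.

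Genes of channels and membrane excitability numbered 5, with a median ratio of 5.61. TMIE, needed for mechanotransduction in hair cells of the inner ear, had 2 and 0 reads with DMSO and 22 and 44 with HJJ_3_5, a ratio of 26.9 with a 95% interval of 7.15 to 227. It was the highest ratio among members that share no exon bases with a protein-coding gene. JPH3, a junctophilin of neurons, had 0 and 9 against 36 and 26. CACNA1D, an L-type calcium channel subunit, had 10 and 7 against 26 and 34. KCNE2, an accessory subunit of potassium channels, had 8 and 4 against 27 and 26, and the synaptic vesicle gene SVOP had 2 and 4 against 20 and 26.

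The 5 germ cell genes had a median ratio of 3.78. MEI1 and HSF2BP, both needed for meiotic recombination, had 7 and 1 reads against 21 and 30 and 9 and 2 against 24 and 27. PFN4, a profilin of the testis, had 7 and 6 against 26 and 23. ACTL8, an actin-like cancer-testis gene, had 9 and 4 against 22 and 20, and CCDC87 had 6 and 4 against 22 and 39. On the fixed list of 28 cancer-testis and germline genes, 22 were near-silent with DMSO and 0 were members, beside the 1.07% of all near-silent genes that were. The same held for 18 near-silent genes of the 26 on the neuronal list, for 10 of 25 inflammatory cytokines and for 3 of 20 interferon-stimulated genes. With so few genes on each list, 0 is close to what that share gives, and nothing is read from it. By symbol, members were 2 of 13 near-silent TNF family genes, 1 of 28 CYP genes, 1 of 30 CCL and CXCL genes and 1 of 51 KCN genes. They were 0 of 24 MAGE genes, 0 of 45 interleukin-related genes, 0 of 110 solute carriers and 0 of 361 olfactory receptors.

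Of the 8 members with other roles, TMEM105 had 9 and 6 reads with DMSO and 43 and 45 with HJJ_3_5, and the cyclin-like gene CCNI2 had 9 and 8 against 40 and 46. SPSB4, a SOCS-box adaptor of ubiquitin ligases, had 10 and 7 against 36 and 43. RIN2, which acts on the small GTPase RAB5, had 9 and 10 against 32 and 46. ZNF593OS had 3 and 7 against 29 and 40, and the kelch-domain gene KLHDC7A had 8 and 6 against 35 and 26. C2orf16 had 6 and 7 against 23 and 34, and BIRC7, an inhibitor of apoptosis, had 9 and 8 against 22 and 27.

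Within the HJJ_3_5 group the 2 libraries were close for most members. The ratio of library 2 to library 1 in CPM had a median of 0.928, with 24 members higher in library 2 and 37 in library 1. The libraries were more than 1.5-fold apart for 13 members and more than 2-fold apart for 2, ENSG00000283765 and ENSG00000268614. Among the other members the widest gap upward in library 2 was that of GPR37L1, at 0.711 and 1.33 CPM.

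**Figure D3:**
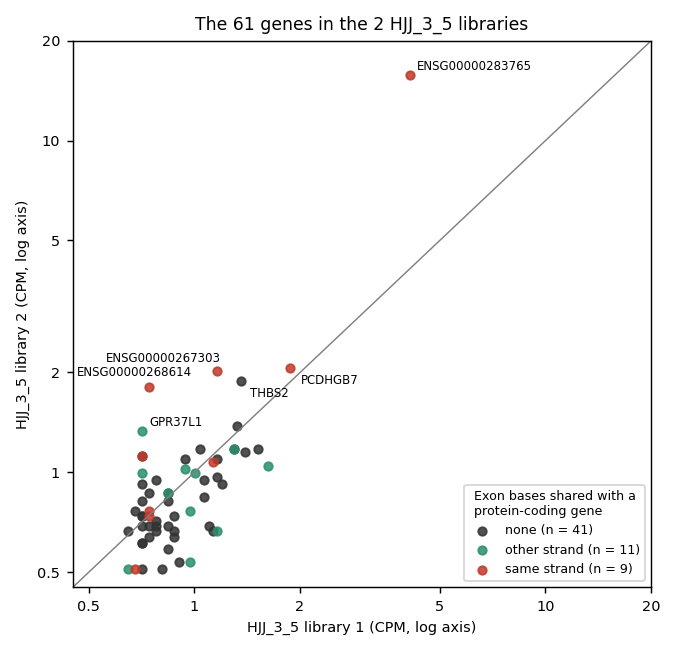
CPM of each of the 61 genes in HJJ_3_5 library 1 and library 2 on logarithmic axes, coloured by whether the gene shares exon bases with a protein-coding gene on the same or the other strand. The line marks equal levels. Most points lie between 0.5 and 1.5 CPM near the line, and ENSG00000283765 lies far above it.

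The top 2 ratios as given, of ENSG00000283765 and ENSG00000267303, belonged to loci that share exon bases with protein-coding genes. TMIE, at 26.9, shares none. ENSG00000268614, which does share them, had fewer reads than TMIE with DMSO and more with HJJ_3_5. Its 25.5 is only a lower bound, so TMIE cannot be ranked above it. Exon bases were shared with a protein-coding gene on the same strand for 9 members and on the other strand only for 11, by GENCODE 29 on GRCh38. The 11 were TSPAN10, CCNI2, GPR37L1, JAM3, ZNF593OS, JPH3, APOBR, CACNA1D, CCDC87, CYGB and PTX3. The remaining 41 shared none with a protein-coding gene, and 30 of these shared none with any gene. The sources used here do not say whether counting used strand, so reads of such members and of their partners cannot be told apart with certainty. The ratio had a median of 10.5 over the 9 same-strand members, from 1.96 for QPRT to 101, and of 3.78 over the 41 without sharing, from 1.87 to 26.9.

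ENSG00000283765, on chromosome 3 at 183815568 to 183884889 on the minus strand, had 6 and 0 reads with DMSO and 127 and 616 with HJJ_3_5. Its ratio was 101, with a 95% interval of 46.1 to 276. It shares exon bases with PARL, a mitochondrial rhomboid protease, and with MAP6D1. Neither partner passed the test, with log2 fold changes of 0.05 ± 0.30 SE for PARL and 0.28 ± 0.24 SE for MAP6D1 (edgeR adjusted p = 0.913 and 0.423). In HJJ_3_5 libraries 1 and 2 PARL had 1003 and 738 reads and MAP6D1 had 368 and 317. Whether reads moved between these overlapping genes was not tested. YEATS2, a reader of histone acylation that lies 2943 bases downstream on the other strand, was called lower, with 3928 and 3791 reads against 1709 and 2410 (log2 fold change -1.21 ± 0.11 SE, edgeR adjusted p = 0.0244).

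On chromosome 19, 4 further members are known only by identifier. ENSG00000267303 had 0 reads in both DMSO libraries and 36 and 79 with HJJ_3_5, at least 31.2-fold higher against a floor of 3 reads over both DMSO libraries. ENSG00000268614 likewise had 0 and 0 against 23 and 71, at least 25.5-fold higher on the same floor. ENSG00000268083 had 1 and 2 against 22 and 44, a ratio of 17.9 with a 95% interval of 5.87 to 89.1, and ENSG00000269693 had 8 and 9 against 23 and 30. On chromosome 3, ENSG00000248710 had 0 and 6 against 35 and 42. Of the partners of ENSG00000267303, FDX2, a mitochondrial ferredoxin, was called higher, with 140 and 105 reads against 376 and 385 (log2 fold change 1.36 ± 0.22 SE, edgeR adjusted p = 0.0314). Of its other partners, RAVER1 had a log2 fold change of -0.06 ± 0.30 SE (edgeR adjusted p = 0.902), and ENSG00000167807 had 11 and 10 reads against 16 and 34 (0.92 ± 0.43 SE, adjusted p = 0.190). The partners of ENSG00000268614 are PNPLA6, a phospholipase, and MCOLN1, a lysosomal channel, with log2 fold changes of -0.14 ± 0.10 SE and 0.61 ± 0.17 SE (edgeR adjusted p = 0.375 and 0.0717).

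PCDHGB7 belongs to the gamma protocadherin cluster. These genes encode adhesion molecules of neurons, and their transcripts join a variable first exon to shared last exons. It had 6 and 6 reads with DMSO and 58 and 81 with HJJ_3_5, or 0.210 ± 0.00965 CPM and 1.97 ± 0.138 CPM (SD, n = 2 each). Among the other genes of the cluster, PCDHGA9 was called higher, with 13 and 16 reads against 89 and 84 (log2 fold change 2.29 ± 0.33 SE, edgeR adjusted p = 0.0293). PCDHGA10 was the most abundant, with 462 and 497 against 739 and 801 (log2 fold change 0.40 ± 0.15 SE, adjusted p = 0.133). PCDHGA8 had 4 and 2 reads against 8 and 41, and PCDHGB4 and PCDHGB5 had 0 reads in all 4 libraries. By symbol PCDHGB7 was the single member among 52 near-silent protocadherin genes, beside 1.07% of all near-silent genes. The last same-strand members were IGFALS, a carrier of insulin-like growth factors, with 8 and 6 against 23 and 29 reads, and QPRT, an enzyme of NAD synthesis, with 10 and 7 against 21 and 20.

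Of the 36 partners on the same strand 19 could be tested. edgeR called 2 higher, PCDHGA9 and FDX2, or 10.5% against 9.17% of all tested genes, and 0 lower, with 4 higher and 0 lower at an unadjusted p below 0.05. DESeq2 called 3 higher and 0 lower, and limma-voom 2 and 0. PCDHGC5, among the 19 and among the 4 at the unadjusted p, had 4 and 2 reads against 10 and 13. It passed the filter on low counts only through its HJJ_3_5 libraries, so nothing is read from its direction. The calls of the other methods can include it as well. The median log2 fold change of these partners was 0.11. Of the 11 tested partners on the other strand, edgeR called 3 higher, or 27.3%, and 0 lower, with 5 higher and 1 lower at an unadjusted p below 0.05. DESeq2 called 5 higher and 1 lower, and limma-voom 3 and 1. The 3 were NPLOC4 across from TSPAN10 (log2 fold change 0.56 ± 0.09 SE, edgeR adjusted p = 0.0324), KLHDC4 across from JPH3 (0.61 ± 0.13 SE, adjusted p = 0.0424) and CHDH across from CACNA1D (0.78 ± 0.11 SE, adjusted p = 0.0293). NPLOC4 had 6510 and 6474 reads with DMSO and 10699 and 12718 with HJJ_3_5, far above the 50 and 41 of TSPAN10 with HJJ_3_5. NCAPD3, across from JAM3, had a log2 fold change of -0.70 ± 0.16 SE (edgeR adjusted p = 0.0505). All of the 5 called partners lost their call without DMSO 1, DMSO 2 or HJJ_3_5 1, and KLHDC4 lost it also without HJJ_3_5 2.

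Genes beside the members were not used in the choice and were tested. On each side of each member the nearest protein-coding gene was taken that is in the table, does not overlap the member and is not itself a member, which gave 118 genes, of which 79 were tested. Adjacent members such as TNFRSF8 and TNFRSF1B are thus skipped. edgeR called 10 of these higher, or 12.7% against 9.17% of all tested genes, and 7 lower, or 8.86% against 8.27%. Their median log2 fold change was 0.10, against 0.00 for all tested genes. Among neighbours of members without shared exons, 4 of 49 were called higher and 3 lower. The 24 tested neighbours within 10 kb included 2 called higher and 2 called lower. FOXL1, a forkhead gene 6640 bases downstream of FOXC2, had 246 and 290 reads with DMSO and 797 and 1127 with HJJ_3_5 (log2 fold change 1.53 ± 0.17 SE, edgeR adjusted p = 0.0273). NUBP2, an iron-sulphur cluster assembly factor beside IGFALS, had 688 and 596 against 1851 and 1969 (1.29 ± 0.14 SE, adjusted p = 0.0273). The called-lower neighbours were YEATS2 and USP30, a mitochondrial deubiquitinase beside SVOP with 625 and 575 reads against 315 and 318 (-1.20 ± 0.17 SE, adjusted p = 0.0291). Beyond 10 kb, VPS13D, the neighbour of TNFRSF1B on the far side from TNFRSF8, had 1484 and 1827 reads against 480 and 647 (-1.86 ± 0.18 SE, adjusted p = 0.0269). It was named after its values were seen, and its call was lost without DMSO 2 or HJJ_3_5 1. Without DMSO 1, DMSO 2 or HJJ_3_5 1 edgeR called 0 neighbours higher, with 13, 11 and 12 at an unadjusted p below 0.05, and called 9 without HJJ_3_5 2. The corresponding numbers called lower were 1, 0, 0 and 9.

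**Figure D4:**
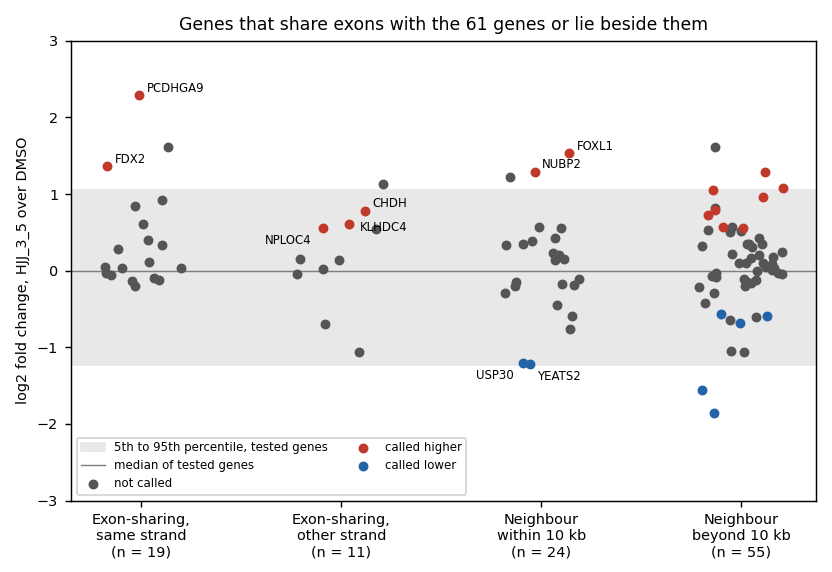
Log2 fold change, HJJ_3_5 over DMSO, of the tested genes that share exon bases with the 61 genes on the same or the other strand and of their nearest neighbours within and beyond 10 kb. Each point is a gene (red called higher, blue called lower, grey not called by edgeR), and the band spans the 5th to 95th percentile of all tested genes. Most points lie within the band, which ends at -1.23 and 1.06. PCDHGA9 is the highest point at 2.29 and VPS13D, beyond 10 kb, the lowest at -1.86.

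Members lay on 17 chromosomes, with 7 each on chromosomes 1, 3 and 17 and 6 on chromosome 19. As a share of the near-silent genes of a chromosome, members ran up to 2.89% on chromosome 16, against 1.07% over all chromosomes. There were 0 members among 378 near-silent genes on the X chromosome, 255 on chromosome 4, 199 on chromosome 9, 156 on chromosome 14, 98 on chromosome 13, 82 on chromosome 18 and 45 on the Y chromosome. Members within 500 kb of each other formed 5 pairs, and TNFRSF8 with TNFRSF1B was the closest. GPR37L1 and LGR6 lie 60.3 kb apart on the same strand of chromosome 1, with 1 protein-coding gene between them. TMIE and PTH1R, SVOP and FOXN4, and TMEM105 and TSPAN10 lie 166.9, 256.7 and 306.5 kb apart.

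The calls on the fixed gene lists are set beside the 9.17% of all tested genes called higher and the 8.27% called lower. The lists were chosen with earlier results of these data known, so their shares are a description. Of 6 tested targets of the aryl hydrocarbon receptor, edgeR called 4 higher, CYP1A1, CYP1B1, AHRR and ALDH3A1, with log2 fold changes from 1.27 to 1.40, and 0 lower. DESeq2 and limma-voom also called 4 and 0, and no gene was lower at an unadjusted p below 0.05. The tested targets not called by edgeR were TIPARP and NQO1, with log2 fold changes of -0.57 ± 0.29 SE and -0.01 ± 0.09 SE (edgeR adjusted p = 0.220 and 0.929). None of the targets on this list was a member. Of 14 tested inflammatory cytokines and chemokines, 5 were called higher (CXCL1, CXCL2, CXCL3, CXCL8 and CCL20) and 0 lower, as with DESeq2 and limma-voom, and at an unadjusted p below 0.05 there were 9 and 0. CXCL2 had 26 and 28 reads with DMSO and 133 and 135 with HJJ_3_5. Among 20 tested targets of ATF4, the factor of the integrated stress response, edgeR called 7 higher and 3 lower. The 4 with the smallest p were TRIB3, PSAT1, ATF5 and GDF15, all higher. At an unadjusted p below 0.05 there were 8 higher and 3 lower. DESeq2 called 8 and 3, and limma-voom 7 and 3. The 7 called by edgeR include NUPR1, with 11 and 8 reads against 40 and 44. NUPR1 passed the filter on low counts only through its HJJ_3_5 libraries, so nothing is read from its call by any method. The 3 called lower by edgeR were DDIT3, DDIT4 and DDR2. Their log2 fold changes were -1.82 ± 0.19 SE, -1.34 ± 0.14 SE and -1.86 ± 0.41 SE (edgeR adjusted p = 0.0273, 0.0273 and 0.0456). Among 18 immediate early genes edgeR called 2 higher and 4 lower, with 3 higher and 7 lower at an unadjusted p below 0.05. DESeq2 called 3 and 5, and limma-voom 2 and 4. The 4 with the smallest p in edgeR were EGR1, JUNB and DUSP1, lower, and EGR3, higher. Of 8 tested neuronal genes edgeR called 1 lower, VGF, and 0 higher, with 3 lower and 0 higher at an unadjusted p below 0.05. DESeq2 called 2 lower and 0 higher, and limma-voom 1 and 0. Of 5 tested cancer-testis genes edgeR, DESeq2 and limma-voom called 0 in either direction, with 1 lower at an unadjusted p below 0.05. Of 18 tested interferon-stimulated genes edgeR called 0, with 5 higher and 1 lower at an unadjusted p below 0.05. DESeq2 called 4 of the 18 higher and 1 lower, and limma-voom 1 and 0. The 5 at the unadjusted p include IFNB1, with 2 and 4 reads against 12 and 14. IFNB1 passed the filter on low counts only through its HJJ_3_5 libraries, so nothing is read from its direction. The calls of the other methods can include it as well.

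The markers were those of an epithelial line. The 10 epithelial and colon markers summed to 4767 and 4337 CPM with DMSO and 5846 and 4936 with HJJ_3_5, led by KRT8, KRT18 and KRT19, although CDX1 had 0 reads in all 4 libraries and CDH17, VIL1 and LGR5 had 8 or fewer in each. The 6 white blood cell markers, LYZ among them, summed to 43.2 and 37.3 CPM with DMSO and 28.7 and 21.0 with HJJ_3_5, nearly all from CD68, and PTPRC had 0 reads in all 4. The 4 endothelial markers summed to 1.66 and 1.56 against 1.91 and 2.58 CPM. The 5 fibroblast markers summed to 67.2 and 65.2 against 35.3 and 40.7, nearly all from COL1A1, and DCN had 0 reads in all 4. The 4 red blood cell markers summed to 6.48 and 6.77 against 6.11 and 5.54.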

How the data were processed

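The authors deposited a table of whole read counts, with a row for each gene and a column for each of the 4 samples, and applied no normalization. The sources used here name no aligner, counter, annotation or strand setting. Mouse builds (GRCm38 and mm10) appear in the submitters' processing notes, although the rows are human Ensembl identifiers. Of 20263 rows, 20224 matched GENCODE 29 (GRCh38) by identifier, which supplied gene type, position and shared exons.

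The 61 members and all lists were chosen with earlier results of these data known. The naming rule took the members with the highest CPM or CPM per kilobase, on a list or near a threshold, 50 in all. The other 11 are named so that every member is given. Counts were filtered with filterByExpr (minimum count 10, minimum total 15), scaled by TMM and tested across all genes by a two-sided quasi-likelihood test with group alone in the model (edgeR 4.0.16, R 4.3.3), which left 2 residual degrees of freedom. Standard errors (SE) of log2 fold changes come from that fit. limma 3.58.1 and DESeq2 1.42.0 were alternatives. Ratios of members use summed counts over scaled library sizes with exact binomial intervals, and a floor of 3 counts where both DMSO libraries had 0. Promoters came from RefSeq (GRCh38.p14).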

Additional observations from a re-analysis of the deposited data

How the results depend on the processing

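The number of genes that met the rule depended on its thresholds. It was 61 as used, 40 with counts scaled by TMM and 46 by library totals (44 of them among the 61), 14 with 5 or fewer reads with DMSO, 9 with 40 or more reads with HJJ_3_5, and 89 to 140 when the rule was applied without 1 library. The mirrored rule gave 10, 4 with 5 or fewer reads in the low group, 3 with 40 or more in the high group and 17 to 58 without 1 library. The excess of the rule over its mirror depended on the library left out. The 2 rules gave 124 and 23 genes without DMSO 1, and 113 and 30 without DMSO 2. They gave 140 and 17 without HJJ_3_5 1, and 89 and 58 without HJJ_3_5 2, the deepest library. The rule itself fixes the direction of the members, so their direction under other settings is no sign of stability.

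Genes called higher numbered 1300, 2614 by library totals, 2077 with a replicate block, 2553 with a GC and length trend removed with the replicate block, and 0 to 976 without 1 library. Genes called lower numbered 1173, 821 by library totals, 2161 by DESeq2, 2540 with a replicate block, 2400 with the trend removed with the replicate block, and 0 to 1716 without 1 library. Where edgeR called 0 higher, without DMSO 2 or HJJ_3_5 1, 1628 and 2053 were higher at an unadjusted p below 0.05. Neighbours called higher were 10, 17 by library totals and with the trend and block, and 0 to 9 without 1 library. Neighbours called lower were 7, 4 by library totals, 11 by DESeq2, 12 with the block, 13 with the trend and block, and 0 to 9 without 1 library. Among lists, 5 interferon-stimulated genes were called higher by library totals, and 3 higher and 1 lower with the trend removed. The genes called higher can include IFNB1. With the trend removed 2 neuronal genes were called lower. By library totals 3 cornified envelope and keratin genes were called higher, a count that can include the members KRT6B and KRT14. Library totals moved the median log2 fold change by 0.19. The cause of these shifts was not tested.

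Replicate numbers do not pair the samples by the labels. Deviations of same-numbered samples correlated at r = 0.167 across 14180 genes, which are not independent. Of 29 called genes that are named and are no members, 28 lost their call without DMSO 1, 29 without DMSO 2, 29 without HJJ_3_5 1 and 5 without HJJ_3_5 2. The called genes DDIT3, DDIT4, DDR2, NUPR1, KRT18 and COL1A1, also named above, were not followed in this way. Depth limits the ratios of the members, for TMIE to a 95% interval of 7.15 to 227.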

Other observations

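The 10 genes of the mirrored rule were lost rather than gained, and their counts are a description as well. FMC1-LUC7L2, whose name is that of a readthrough of neighbouring genes and whose reads can be shared with them, had 123 and 122 reads with DMSO and 0 and 0 with HJJ_3_5, and ENSG00000258677 had 22 and 28 against 0 and 0. MAP7D2, a microtubule-binding protein, had 42 and 45 against 1 and 6. PNMA5 had 43 and 46 against 10 and 3, and the cytokine gene IL16 had 52 and 22 against 8 and 6. SUMO4 had 21 and 25 against 2 and 5. TLR10, a Toll-like receptor, had 23 and 26 against 4 and 8, and CNTFR, the receptor for ciliary neurotrophic factor, had 21 and 20 against 3 and 4. The hormone gene SCT, for secretin, had 22 and 20 against 8 and 6, and the olfactory receptor gene OR51I1 had 23 and 21 against 6 and 9.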
